A study of Drosophila melanogaster with 3 samples.

Results

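Chromatin immunoprecipitation of a GFP-tagged protein from whole Drosophila melanogaster embryos gave 1232 peaks whose summit lay just upstream of the start site of a single gene. These were 23.7% of the 5208 peaks in the authors' optimal list, and they belonged to 1073 of 13945 protein-coding genes. A peak was a member when exactly 1 protein-coding gene had an annotated start site within 500 bp of its summit and the summit lay 1 to 500 bp upstream of the nearest of those start sites, read along the gene's strand. The same list held 255 single-gene promoter peaks with the summit downstream of the start site (4.90%), 894 promoter peaks shared by 2 or more genes (17.2%), 2 with the summit on the start site and 2825 peaks outside promoters.

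The embryos were of mixed sex and were collected at 0 to 24 h from 1 transgenic line, and the sonicated chromatin was immunoprecipitated with an anti-GFP antibody. The 3 biological replicates, numbered 1, 2 and 4, form 1 group, each with a biosample of its own. The labels conflict on what was tagged: CG18619, the gene of REPTOR-BP, stands in the strain, source and antibody fields, but REPTOR with a C-terminal GFP in the notes and descriptions. The neutral name, the tagged protein, is therefore used here. No untagged, treated or mutant embryos were among the samples used here, and a whole embryo mixes all cell types and many ages, so a peak cannot be placed in a tissue.

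REPTOR and REPTOR-BP are partner transcription factors of the basic leucine zipper (bZIP) family. In the fly, active TORC1 kinase, the cell's sensor of amino acids and growth signals, keeps REPTOR phosphorylated in the cytoplasm, and when TORC1 activity falls REPTOR enters the nucleus and acts with REPTOR-BP on genes of the response to scarcity. A fly promoter holds a core at the start site, where elements such as the TATA box, the initiator, the DNA replication-related element (DRE) or Motif 1 set where RNA polymerase begins, and a stretch upstream of it where other factors bind on DNA free of nucleosomes.

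The sequences below are windows of the dm6 assembly, 50 bp to each side of the summit, for 10 of the 25 strongest members that were matched in all 3 replicates, shown as examples of strong peaks upstream of single genes. Some stronger ones, such as px, are named below without their sequence. Each is written 5′ to 3′ along its gene's strand, and a window that would reach the start site ends 1 bp before it. Capitals mark any match, on either strand, to the motifs spelled out and counted below, the A tract left out.
CG14100: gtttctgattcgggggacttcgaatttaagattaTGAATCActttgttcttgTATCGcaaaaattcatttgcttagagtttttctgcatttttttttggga
Ugalt: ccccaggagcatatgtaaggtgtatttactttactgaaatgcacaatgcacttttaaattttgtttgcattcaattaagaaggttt
CG31145: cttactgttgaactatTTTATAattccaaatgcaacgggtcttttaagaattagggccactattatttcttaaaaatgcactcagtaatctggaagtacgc
ph-p: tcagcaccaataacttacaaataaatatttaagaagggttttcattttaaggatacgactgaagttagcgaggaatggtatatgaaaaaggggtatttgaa
Atf3: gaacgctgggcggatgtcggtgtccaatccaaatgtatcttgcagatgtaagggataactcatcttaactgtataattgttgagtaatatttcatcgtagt
CG18549: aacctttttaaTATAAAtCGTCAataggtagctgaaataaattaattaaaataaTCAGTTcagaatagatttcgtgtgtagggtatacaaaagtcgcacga
larp: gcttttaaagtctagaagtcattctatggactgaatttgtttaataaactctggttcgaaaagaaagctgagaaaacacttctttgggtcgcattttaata
gish: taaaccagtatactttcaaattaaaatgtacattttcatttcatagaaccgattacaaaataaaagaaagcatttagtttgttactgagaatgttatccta
Gapdh2: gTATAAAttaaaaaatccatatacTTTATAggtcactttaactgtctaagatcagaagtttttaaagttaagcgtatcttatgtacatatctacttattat
CG1635: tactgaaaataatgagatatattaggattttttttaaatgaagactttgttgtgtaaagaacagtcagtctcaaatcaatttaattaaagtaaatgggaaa

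Of these 10 windows, 4 held a marked match and 6 held none, and their G and C content lay between 23.8% and 39.6%. The windows lay at chr3L:19590575-19590675 on the minus strand for CG14100, chrX:2703853-2703938 on the minus strand for Ugalt, chr3R:23669788-23669888 on the minus strand for CG31145, chrX:2137285-2137385 on the minus strand for ph-p, chrX:1275474-1275574 on the minus strand for Atf3, chr3R:12449143-12449243 on the plus strand for CG18549, chr3R:28326544-28326644 on the minus strand for larp, chr3R:16280682-16280782 on the plus strand for gish, chrX:15867927-15868027 on the plus strand for Gapdh2 and chr3R:31588470-31588570 on the plus strand for CG1635.

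Further windows made in the same way are examples of the motifs and gene groups counted below, and they were chosen after their values were seen. They are members with the DRE (eEF1gamma, RpS12), Motif 1 (Adsl, Vha68-2) or the whole CRE (Cmpk, Unr), with that motif alone in capitals. Each window has at most 30 bases in exons, and stronger members with the motif may have been left out. Then follow 3 ribosomal protein genes and 3 genes of sugar metabolism, with capitals as in the first set.
eEF1gamma: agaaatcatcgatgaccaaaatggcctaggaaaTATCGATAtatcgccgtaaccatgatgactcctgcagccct
RpS12: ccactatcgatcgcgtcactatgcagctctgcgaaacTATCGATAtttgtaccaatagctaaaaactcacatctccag
Adsl: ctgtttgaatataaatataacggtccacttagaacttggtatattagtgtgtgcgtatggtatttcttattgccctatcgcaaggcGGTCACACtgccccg
Vha68-2: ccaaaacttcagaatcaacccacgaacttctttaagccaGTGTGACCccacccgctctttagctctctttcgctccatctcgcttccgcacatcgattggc
Cmpk: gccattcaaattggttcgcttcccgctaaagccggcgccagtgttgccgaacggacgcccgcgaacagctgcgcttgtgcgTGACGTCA
Unr: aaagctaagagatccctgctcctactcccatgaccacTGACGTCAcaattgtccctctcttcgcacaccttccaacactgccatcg
RpL23A: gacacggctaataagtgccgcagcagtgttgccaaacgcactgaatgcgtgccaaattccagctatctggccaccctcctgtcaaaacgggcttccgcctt
RpL24: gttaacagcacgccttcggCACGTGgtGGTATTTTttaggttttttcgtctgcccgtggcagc
RpS10b: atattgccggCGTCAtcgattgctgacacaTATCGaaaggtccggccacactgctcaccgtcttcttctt
Eno: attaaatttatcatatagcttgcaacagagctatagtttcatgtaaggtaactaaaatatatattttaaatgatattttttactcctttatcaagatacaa
Hex-A: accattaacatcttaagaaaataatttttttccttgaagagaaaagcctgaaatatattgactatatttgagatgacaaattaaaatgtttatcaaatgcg
Ldh: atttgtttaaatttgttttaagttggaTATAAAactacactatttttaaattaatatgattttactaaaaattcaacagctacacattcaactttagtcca

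In this second set, the 3 ribosomal protein windows (RpL23A, RpL24 and RpS10b) had 51.4% to 55.4% G and C, and the 3 windows of sugar metabolism genes (Eno, Hex-A and Ldh) had 20.8% to 24.8%. The first lay within 71 bp of the start site and the others 163 to 208 bp from it, and composition changed with distance among members in general, as described below. The windows lay at chr3R:29220098-29220171 on the plus strand for eEF1gamma, chr3L:13023274-13023351 on the plus strand for RpS12, chr3R:17021121-17021221 on the minus strand for Adsl, chr2L:12974120-12974220 on the plus strand for Vha68-2, chr3R:26055439-26055527 on the minus strand for Cmpk, chr3L:8442382-8442467 on the minus strand for Unr, chr3L:1668675-1668775 on the minus strand for RpL23A, chr2L:13395132-13395194 on the minus strand for RpL24, chrX:19597961-19598030 on the plus strand for RpS10b, chr2L:1727875-1727975 on the minus strand for Eno, chrX:9585462-9585562 on the plus strand for Hex-A and chr3L:6262821-6262921 on the minus strand for Ldh.

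In the replicates, the rank of a member was compared rather than its signal, because signal is the authors' value per region on each list's own scale. A member counted as matched in a replicate when one of that replicate's strongest 5208 regions had its summit within 100 bp. Replicate 2 stood apart from the others: 73.4% of members were matched in it, against 85.2% in replicate 1 and 85.1% in replicate 4, while the shares over all optimal peaks were 70.9%, 82.6% and 81.9%. The lists hold no read counts, so depth is unknown, and the optimal list was itself made from the replicate lists, so that part of any match is built in.

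The strongest members stood upstream of genes of many functions, among them proteins of the Golgi and endoplasmic reticulum, translation factors, transcription regulators and glycolytic enzymes. The pooled signal of the 1232 members ran from 148 to 4036 with a median of 278, and members made up 37 of the 100 and 95 of the 250 strongest peaks of the optimal list. The strongest was just over 100 bp upstream of CG14100, with a signal of 1381, 826 and 1849 in replicates 1, 2 and 4. It ranked first in replicates 1 and 4 and sixth in replicate 2. The next was 36 bp upstream of Ugalt, which encodes a transporter of UDP-galactose into the Golgi, with 1239.7, 954 and 1613 in replicates 1, 2 and 4. Both stayed among the first 6 regions of every replicate list.

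Plexus (px), which acts in the patterning of wing veins, had its summit 208 bp upstream and a signal of 945, 885 and 1118 in replicates 1, 2 and 4. The mitochondrial ribosomal protein gene mRpL41 had a summit 143 bp upstream, with 838, 488 and 1193 in the 3 replicates. By rank, px stood highest in replicate 2 (5, against 8 and 12 in replicates 1 and 4) and mRpL41 lowest there (30, against 13 and 8). Of the 25 strongest members, 12 had their best rank in replicate 2 and 9 their worst, and none ranked below 125 in any replicate. Polyhomeotic proximal (ph-p), a Polycomb group gene, had a summit 480 bp upstream, the farthest of the 25, with 842, 466 and 1056. Its tandem copy ph-d also had a member peak, 464 bp upstream, with a pooled signal of 157 against 2200.0 at ph-p, and the placement of reads that fit both copies is not stated.

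Several groups of genes appeared among the 25. Atf3, a bZIP factor itself, had 661, 412 and 939 in replicates 1, 2 and 4 at a summit 240 bp upstream. Fkbp14, a prolyl isomerase of the endoplasmic reticulum, and Alg3, a mannosyltransferase of N-glycan assembly, had pooled signals of 1983 and 1974. eIF6, which acts in the making of the large ribosomal subunit, had 1919, and larp, an RNA-binding protein, had 1932. Gapdh2 and Eno, both glycolytic enzymes, had 1762 and 1593, with summits 168 and 208 bp upstream. The other genes of the 25 were CG31145, CG1888, Tina-1, CG18549, gish (a casein kinase I), CG1635, cu, E23 (an ABC transporter induced by ecdysone), MFS10, RluA-1, RapGAP1, Sox14 (a transcription factor induced by ecdysone) and Fhos (a formin), with pooled signals from 1522 at Fhos to 2454 at CG31145.

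**Figure D1:**
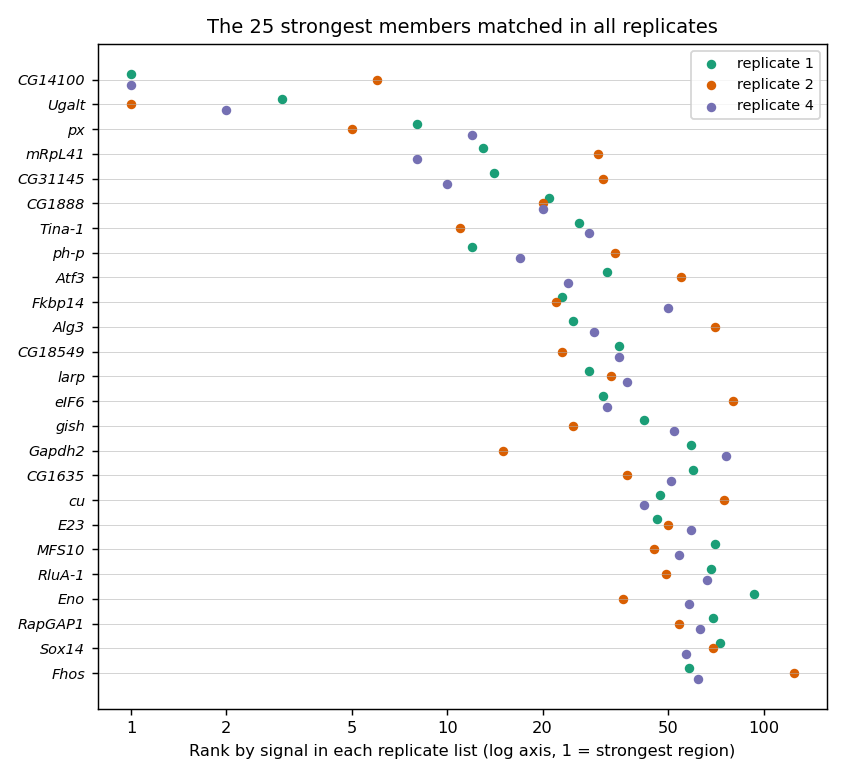
Rank by signal in replicates 1, 2 and 4 (horizontal log axis, 1 is the strongest region of that list) for the 25 strongest members matched in all 3 replicates, ordered from top to bottom by pooled signal, with 1 point for each replicate. CG14100 and Ugalt stay among the first 6 regions of every replicate list, with px ahead of CG14100 in replicate 2. Replicate 2 gives the best rank for 12 of the 25 and the worst for 9.

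Support for members from the single replicates depended on how a match was counted. At 100 bp and the strongest 5208 regions, all 3 replicates matched 730 of the 1232 members (59.3%, 95% Wilson interval 56.5 to 62.0), where the share over all optimal peaks was 53.4%, a difference that was not tested. The members' share was 41.6% when summits had to lie within 50 bp and 38.1% in the strongest 2500 regions. Another 332 were matched in 2 replicates, 149 in 1 and 21 in none (of all optimal peaks, 2.36% had no match). The most common incomplete pattern was a match in replicates 1 and 4 but not in 2, which 199 members had, and without replicate 2 the share of members matched in both remaining replicates was 75.4%. In the whole replicate lists of 30000 regions the shares were nearly equal, 83.3% of members and 83.2% of all optimal peaks.

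Of members with a summit within 100 bp anywhere in the whole replicate list, the median shift from the optimal summit, which that limit bounds, was 16.0, 15.0 and 15.0 bp in replicates 1, 2 and 4. Spearman's rho of the same members' signal, given as a description over members that share their libraries, was 0.792 between replicates 1 and 2 (1087 members), 0.867 between 1 and 4 (1109 members) and 0.776 between 2 and 4 (1068 members). The pairs with replicate 2 were the lower ones.

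Against the single-gene peaks downstream of the start site, members were matched more often in 2 of the 3 replicates. The shares were 85.2%, 73.4% and 85.1% of members in replicates 1, 2 and 4, against 77.3%, 76.1% and 63.9% of downstream peaks, so replicate 2 ran the other way. The means were 81.2 ± 6.82% of members and 72.4 ± 7.38% of downstream peaks (SD, n = 3), a difference of 8.83 ± 12 percentage points, with p = 0.50 by the exact two-sided sign-flip permutation test over the replicates (0.60 after Benjamini-Hochberg adjustment over 6 tests). With 3 replicates this test cannot go below 0.25, and the difference was 14.6 points without replicate 2 but 2.64 points without replicate 4. Against shared promoter peaks, 81.2 ± 6.82% of members stood beside 79.0 ± 6.71%, higher for members in 3 of 3 replicates (exact permutation p = 0.25, adjusted 0.375), but the difference of 2.20 points was 0.263 with any overlap and -0.375 in the strongest 2500 regions.

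Members also held better places than downstream peaks among peaks with a summit within 100 bp anywhere in the whole replicate lists. Their median rank was 2244, 2205 and 2105 in replicates 1, 2 and 4, against 3170, 2383 and 3190 for downstream peaks, a lower number being a stronger region. Every replicate had members ahead, with a difference of -729.8 ± 484 ranks (SD, n = 3, exact permutation p = 0.25, adjusted 0.375). Downstream peaks were also weaker in pooled signal, with a median of 222 against 278 for members. Pooled signal, rank and share matched come from the same libraries, so they are not separate lines of support. Shared promoter peaks had median ranks of 2039, 2550 and 1824, which overlapped those of members (exact permutation p = 1.00).

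Members without full support included strong ones. The peak 300 bp upstream of chn, a zinc finger gene of the nervous system, had signals of 275 and 327 in replicates 1 and 2, and replicate 4 had no summit within 100 bp of it. A second member of chn in the same called region, 99 bp upstream, had 197, 283 and 523 in replicates 1, 2 and 4. E(spl)m3-HLH, a Notch target of the Enhancer of split complex, had 146 and 166 in replicates 1 and 2 and likewise no summit in replicate 4, whereas its other member, 451 bp upstream, had 389, 265 and 455. CG32137 had 237 and 315 in replicates 1 and 4, and Duox, which makes hydrogen peroxide in the gut, had 213 and 265 there. Replicate 2 had no summit within 100 bp of either, although another member of Duox, 345 bp upstream, had 163, 153 and 74.3 in replicates 1, 2 and 4. The 4 weakest members, at Blos3, Mctp, Osi24 and t, had pooled signals of 148 to 149 and were each matched in replicate 4 alone.

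Single-gene promoter peaks of the tagged protein lay mainly on the upstream side of the start site. In the optimal list the ratio of members to downstream peaks was 4.83. In each replicate's own strongest 5208 regions, taken without the optimal list, 23.6%, 22.9% and 24.1% met the same rule upstream in replicates 1, 2 and 4, against 5.22%, 9.75% and 3.96% downstream. The upstream share hardly varied between replicates, and the downstream share of replicate 2 was the highest. The means were 23.5 ± 0.569% upstream and 6.31 ± 3.05% downstream, a difference of 17.2 ± 3.61 points that had the same sign in 3 of 3 replicates (SD, n = 3, exact permutation p = 0.25, adjusted 0.375). The ratio was 4.51, 2.35 and 6.08 in replicates 1, 2 and 4.

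The ratio was lower in weaker regions. Of the next 5208 regions of the pooled list, 15.9% lay upstream and 9.14% downstream of a single start site, a ratio of 1.74. Of the weakest 5000 pooled regions, 6.34% lay upstream and 6.24% downstream, a ratio of 1.02. Over all positions of the 6 arms, the upstream class took up 4.50% and the downstream class 5.46%, a ratio of 0.825. These pooled regions and positions were added as a comparison after the data were seen.

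**Figure D2:**
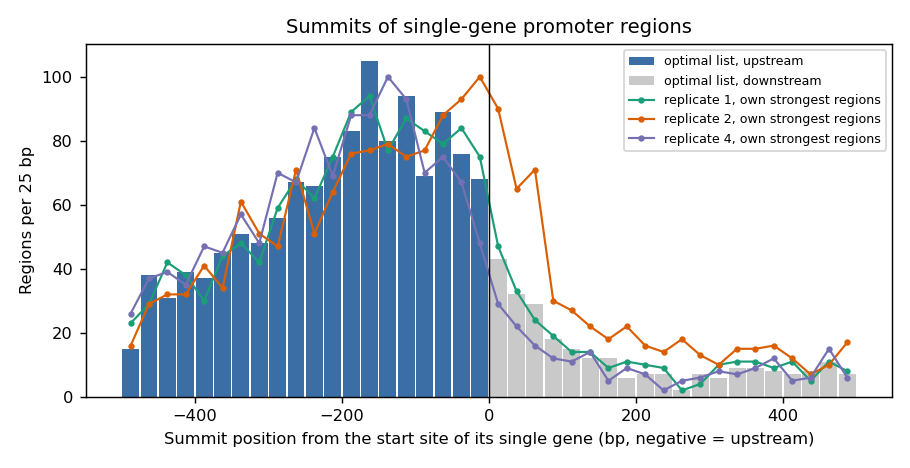
Number of regions per 25 bp (vertical axis) by summit position from the start site of its single gene (horizontal axis, bp, negative upstream), for the optimal list (bars, members blue, downstream peaks grey) and each replicate's own strongest 5208 regions (lines). The upstream side is higher in all 3 replicates, and replicate 2 has the most regions just downstream of the start site.

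Within the upstream side, members spread broadly around a median distance of 185 bp (quartiles 103 to 299 bp). Within 100 bp of the start site lay 302 members (24.5%), from there to 300 bp lay 626 (50.8%) and beyond 300 bp lay 304. Downstream peaks sat closer, with a median of 107 bp. Distance classes below exclude their lower bound. Members were densest at 150 to 200 bp, with 37.6 per 10 bp, against 28.8 per 10 bp at 1 to 50 bp and 12.3 per 10 bp at 400 to 500 bp. In the replicates' own regions the class of 1 to 50 bp varied most, with 12.9%, 16.2% and 9.18% of upstream regions in replicates 1, 2 and 4.

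Signal and replicate support were highest at the same distance. Members at 150 to 200 bp had a median pooled signal of 346, and 68.1% of them were matched in all 3 replicates (Wilson interval 61.1 to 74.3). Members at 1 to 50 bp had a median of 222, and 54.2% were so matched (46.0 to 62.1). Their median ranks were 1666, 1555 and 1502 in replicates 1, 2 and 4 for the class at 150 to 200 bp, and 3104, 3011 and 2672 for the class at 1 to 50 bp, so the order held in each replicate.

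**Figure D3:**
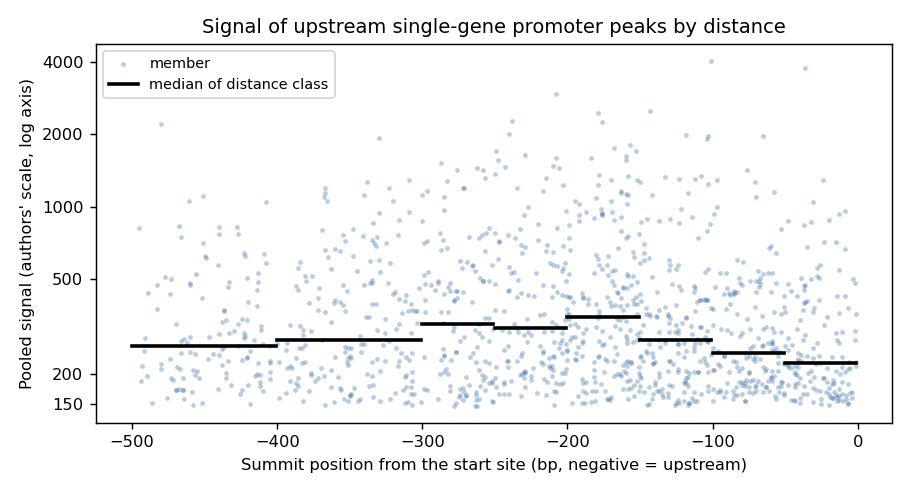
Pooled signal of each of the 1232 members (vertical log axis, authors' scale) by summit position from the start site (horizontal axis, bp, negative upstream), with a black line for the median of each distance class. The medians run between 222 nearest the start site and 346 at 150 to 200 bp, and the single values overlap widely.

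At the inner limit of the class, CG34355, Xbp1 and elgi had summits 1 bp upstream and RpS29, a ribosomal protein gene, 2 bp upstream. The pooled signal of these 4 peaks ran from 217 at elgi to 480.3 at RpS29. At the outer limit, the members nearest to 500 bp were CG43736 at 495 bp (signal 815), Jheh1 at 494 bp (188), Spn43Ad at 493 bp (217) and Oscillin at 492 bp (249). Just outside lay l(3)neo38 at 501 bp (344), CG9184 at 502 bp (155), dap at 502 bp (149) and t-cup at 503 bp (415).

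The base composition under the summits changed with distance, and up to 150 to 200 bp it fell more steeply than in promoters at large. Farther out members stayed nearly level, while promoters at large rose in G and C. Members at 1 to 50 bp upstream had 46.3 ± 8.18% G and C in the windows around their summits (SD over 144 members), where windows at the same distance from the most 5′ start site of all 13945 genes had 42.2%. Members at 150 to 200 bp had 32.6 ± 8.70% (188 members), where all promoters had 36.2%. Members at 400 to 500 bp had 33.3 ± 8.64% (123 members), where all promoters had 41.0%. Near the start site, members thus lay above promoters at large, and farther out they lay below. The sets were not alike in other ways. Members were read at the nearest start site, which was the most 5′ one of its gene for 65.6% of them. Promoters at large also took in genes with close neighbours, which the rule for members leaves out. The part of start site and neighbourhood in these gaps was not tested.

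The replicates' own upstream regions gave the same picture, with 45.8 ± 1.48% at 1 to 50 bp and 31.9 ± 0.922% at 150 to 200 bp (SD, n = 3). Around the summits, in steps of 20 bp, the G and C share of members within 100 bp of the start site was lowest, at 30.3%, in the steps that begin at -140 and -100 bp from the summit. For members beyond 100 bp it was lowest, at 31.9%, in the step that begins at -20 bp. Summits upstream of a single start site had 35.5%, 37.7% and 34.8% G and C in replicates 1, 2 and 4, against 42.0%, 44.0% and 39.5% at downstream summits. The replicate values did not overlap, and the difference was -5.89 ± 0.972 percentage points (SD, n = 3, lower upstream in 3 of 3 replicates, exact permutation p = 0.25, adjusted 0.375). The sets were not matched for distance. In the optimal list members within 100 bp had 43.4%, above the 41.7% of downstream peaks, and only those beyond 100 bp were lower, with 32.8%.

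Of 20 motifs counted on both strands in the same windows, none reached 2 times its share in all promoters at the members' distances. In narrower windows the CRE did, at a ratio of 2.31, and in wider ones its ratio was 0.771, on few matches. The palindromic CRE, a site of bZIP dimers spelled TGACGTCA, was in 3 of 1232 members (0.244%, where all promoters had 0.154%). Its core TGACG, which the whole site contains, was in 6.90% of members (all promoters 8.11%). The Jun and Fos site AP-1, searched as TGANTCA, was in 2.35% of members (all promoters 2.07%). Other bZIP sites were rare, with 3 members for the C/EBP palindrome TTGCGCAA and 1 for the composite site of C/EBP and ATF spelled TGATGCAA (all promoters 0.127% and 0.281%). The forkhead site TGTTTAC, which FOXO binds, was in 3.41% of members (all promoters 2.82%).

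Most core promoter elements were likewise close to their share in all promoters when members were counted together, and the initiator was lower. The TATA box, spelled TATAAA, was in 20% of members (all promoters 18.5%). Of the 246 members with these letters, 36 had them within 100 bp of the start site. Their median position was -200 bp from it (negative upstream), so most matches lay away from the core. The core that BEAF-32 binds, CGATA, which is also part of the DRE, was in 19.6% of members (all promoters 17.5%). The DRE itself, TATCGATA, was in 2.52% of members (all promoters 2.30%). Motif 1, spelled GGTCACAC, was in 1.87% of members (all promoters 1.5%), and Ohler 6, spelled GGTATTTT, was in 1.38% (all promoters 1.52%). The initiator, searched as TCAGTT, was in 4.95% of members (Wilson interval 3.87 to 6.31, all promoters 7.49%). It was in 5.46%, 7.12% and 6.15% of the own upstream regions of replicates 1, 2 and 4, so replicate 2 came close to all promoters. Shared promoter peaks had 3.69%. The pyrimidine initiator of translation genes, CTCTTTC, was in 1.79% of members (all promoters 1.63%).

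The E-box of housekeeping promoters, CAGCTG, was in 4.95% of members (all promoters 5.07%), and the Myc E-box, spelled CACGTG, was in 1.14% of members (all promoters 1.17%). The site of GAGA factor, searched as GAGAGA, was in 3.90% of members (all promoters 4.25%). The early activator Zelda had its site CAGGTAG in 5 members (0.406%, all promoters 0.591%). The Polycomb recruiter Pho, searched as GCCATNTT, was in 2.44% of members (all promoters 1.81%), GATA factors, with AGATAAG, were in 1.54% of members (all promoters 1.57%), and an A tract of 7 letters was in 11.4% (all promoters 9.94%).

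By distance, however, near and far members differed in these elements. The DRE, which Dref binds in housekeeping promoters, was in 18 of 144 members at 1 to 50 bp (12.5%, Wilson interval 8.06 to 18.9, all promoters there 6.42%) and in 9 of 158 at 50 to 100 bp (5.70%, all promoters 4.12%). It was in 0 of 174 at 100 to 150 bp, which allows up to 2.16% by the Wilson interval, where all promoters had 1.45%. Over all members within 100 bp the share was 8.94%, and over those beyond 100 bp it was 0.430%. In the replicates' own regions it was 10.5 ± 1.45% at 1 to 50 bp (SD, n = 3).

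Other elements of housekeeping promoters leaned the same way. The BEAF-32 core was in 43.8% of members at 1 to 50 bp (Wilson interval 35.9 to 51.9, all promoters 28.1%) and in 9.57% at 150 to 200 bp (all promoters 14.2%). The housekeeping E-box was in 14.6% at 1 to 50 bp (9.74 to 21.3, all promoters 8.77%), and Motif 1, which M1BP binds, was in 6.25% (3.32 to 11.5, all promoters 4.57%). The letters TATAAA ran the opposite way, with 8.33% of members at 1 to 50 bp (4.83 to 14.0, all promoters 18.7%). Their highest class was 200 to 250 bp, with 29.1% (22.2 to 37.0, all promoters 18.9%), but 250 to 300 bp had 16.3% (all promoters 18%). The replicates' own regions had TATAAA in 9.42 ± 1.44% at 1 to 50 bp and 25.3 ± 2.33% at 200 to 250 bp (SD, n = 3). Member windows had 46.3% G and C at 1 to 50 bp and 32.3% at 200 to 250 bp, and the part of composition in these shares was not tested. A match is only a run of letters, and these shares were not tested.

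**Figure D4:**
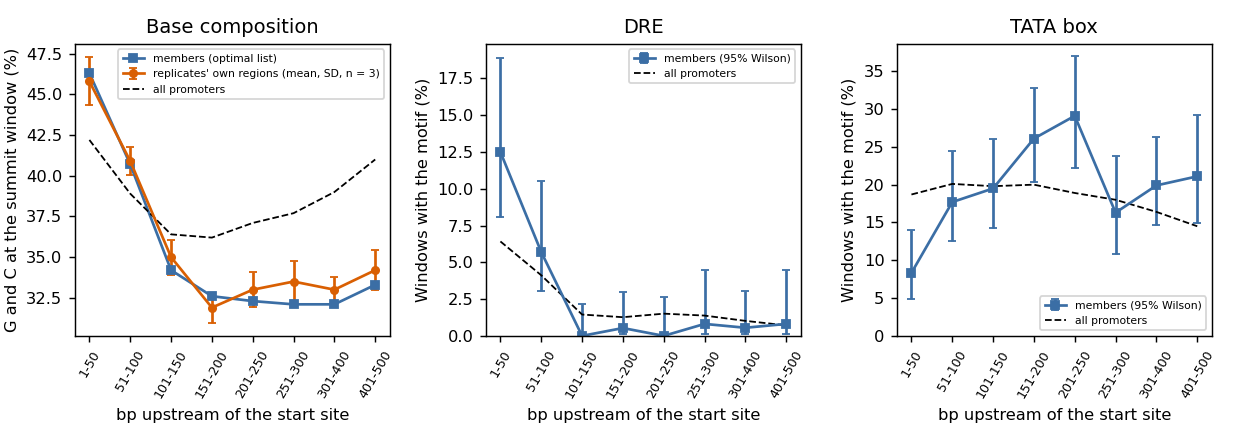
G and C content (left), share of windows with the DRE (middle) and share with TATAAA (right) in summit windows of 50 bp to each side by distance upstream of the start site (horizontal axis, bp), for members (blue squares; bars are 95% Wilson intervals for the motifs), the replicates' own upstream regions (orange, mean and SD, n = 3, left only) and all promoters (dashed). Near the start site members lie above all promoters in G and C and in DRE and below them in TATAAA, and G and C is below all promoters beyond 100 bp.

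Cytosolic ribosomal protein genes, translation factors and genes of sugar metabolism, the circadian clock and the bZIP family had member peaks in a larger share than protein-coding genes at large, of which 7.69% had one. The 20 gene lists behind these counts are described by their counts, without a test, and the replicates' own strongest regions gave 7.63 ± 0.262% of all genes (SD, n = 3). Of the 20 lists, 9 had at least 2 times the share over all genes. The counts depend on genome layout too, since a peak with a second gene's start site within 500 bp of its summit cannot be a member.

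Ribosomal protein genes of the cytosol had members at 34 of 92 (37.0%, Wilson interval 27.8 to 47.2), and 28 of these genes had 1 matched in all 3 replicates. With a promoter width of 1000 bp the number was 22. Their summits lay close to the start site, at a median of 37.0 bp upstream, where the median over all members was 185 bp. RpL23A had 451, 308 and 510.3 in replicates 1, 2 and 4 at 71 bp, and RpS4 had 305, 295 and 386 at 9 bp. RpL24 had 307, 223 and 420.3 at 13 bp, and RpS10b had 265, 215 and 388 at 20 bp. Of the 92 genes, 35 stood at shared promoter peaks and 8 at downstream ones, and some stood in more than 1 class. Any promoter peak was found at 75 of them, against 20.6% of all protein-coding genes. Over all 13945 genes, 1661 stood at shared promoter peaks and 245 at downstream ones. RpS14b, one of a near-identical tandem pair, is uncertain, since the placement of shared reads is not stated.

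Translation factors had members at 8 of 23 (34.8%, 18.8 to 55.1), again close to the start site, at a median of 43.0 bp. With a promoter width of 1000 bp the number was 4, and 5 had a member matched in all 3 replicates. The elongation factor subunit eEF1gamma had 419.8, 285 and 586 in replicates 1, 2 and 4 at 24 bp, and its window holds the DRE printed above. eEF1alpha1 had 154, 127 and 279 at 69 bp, and the initiation factor eIF5B had 155, 80.7 and 191 at 150 bp. In the replicates' own lists 34.8%, 43.5% and 26.1% of these genes were found, a wide spread. Mitochondrial ribosomal protein genes had a member at 1 of 73, mRpL41. Any promoter peak was found at 30 of the 73, against 2870 of all 13945 genes (20.6%). Of those 30, 29 stood at a shared peak, where 1661 of all genes stood.

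Genes of sugar metabolism had members at 11 of 25 (44.0%, 26.7 to 62.9), at a median of 211 bp upstream. In the replicates' own lists the share was 40%, 44.0% and 48.0%. Gapdh2 had 528, 601 and 633 in replicates 1, 2 and 4, and Eno had 449.5, 463 and 674. Hexokinase (Hex-A) had 344, 314 and 499.9 at 163 bp, and lactate dehydrogenase (Ldh) had 327, 247 and 409 at 177 bp. The list also holds fatty acid genes, and FASN1, ACC and AcCoAS were among the 11, with pooled signals of 354, 236 and 287.

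Of the bZIP factors, 7 of 21 had members (33.3%, 17.2 to 54.6), and in 6 of them 1 was matched in all 3 replicates. With a promoter width of 250 bp the number was 4. After Atf3 came REPTOR itself, with 342, 358 and 414 in replicates 1, 2 and 4 at a summit 158 bp upstream, chr3R:24572458-24572823 in dm6. A weaker peak of REPTOR lay 21 bp upstream of another of its start sites, with 73.9, 83.8 and 74.0. Some labels name REPTOR as the tagged gene, and whether the transgene adds to the signal at this locus was not tested. Pdp1, a clock factor, had 237, 152 and 343 at 451 bp, and CrebA, a regulator of secretory genes, had 176, 133 and 199 at 386 bp.

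The clock list had members at 7 of 19 (36.8%, 19.1 to 59.0), of which Pdp1 and vri are also bZIP factors and sgg, a kinase, is also in the TORC1 and insulin list. The peak of sgg had 412, 323 and 582 in replicates 1, 2 and 4, and that of vri had 149, 129 and 203. The kinase gene dco had 119, 44.8 and 103 and was unmatched in replicate 2. Of the 7, 4 had a member matched in all 3 replicates.

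TORC1 and insulin signalling genes had members at 8 of 38 (21.1%, 11.1 to 36.3). After sgg came foxo, a transcription factor restrained by insulin signalling, with 239, 178 and 256 in replicates 1, 2 and 4, then melt with 209, 140.5 and 282 and SNF4Agamma, a subunit of the energy sensor AMPK, with 136, 77.4 and 157. The insulin receptor gene InR had 81.8, 69.5 and 96.3. Autophagy and lysosome genes had members at 3 of 28 (10.7%, 3.71 to 27.2), namely Vps15, Rubicon and Atg13, with pooled signals of 245, 224 and 172. Vps15 and Rubicon were matched in all 3 replicates, and Atg13 in replicate 4 alone.

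Heat shock and chaperone genes had members at 6 of 22 (27.3%, 13.2 to 48.2). Hsp83, the fly Hsp90, had 484, 392 and 462 in replicates 1, 2 and 4, and the small heat shock gene Hsp27 had 342, 296 and 472. The cochaperone starvin (stv) had 184, 166 and 247, and Hsp26 had 144, 132 and 97.2. Cell cycle genes had members at 8 of 36 (22.2%, 11.7 to 38.1) and at 5 with a promoter width of 250 bp, but only CycE and Dp were matched in all 3 replicates, with pooled signals of 747 and 693. Chromatin regulators had members at 8 of 48 (16.7%, 8.70 to 29.6), led by ph-p and lola.

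Lists of patterning, sensory and germline genes were at or below the share over all genes. Hox, segmentation and axis patterning genes had members at 3 of 42 (7.14%, 2.46 to 19.0), bcd, Dll and Dfd, with pooled signals of 180.2 to 188, and none was matched in all 3 replicates. The list of chemosensory genes had 2 of 230 (0.870%, 0.239 to 3.11), and both, Obp99b and Obp83g, encode odorant-binding proteins rather than receptors. Germline and maternal genes had 1 of 25, smg, and oxidative stress and xenobiotic genes, just above that share, had 2 of 24 (8.33%), Irp-1A and GstD1.

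The other lists lay between 12.5% and 14.8% in the optimal list. Developmental signalling genes had members at 9 of 62, led by the EGF receptor ligand spi with 449.6, 259 and 567 in replicates 1, 2 and 4 and its inhibitor aos with 217, 246 and 285. Hormone response genes had 4 of 27, led by the nuclear receptor Hnf4 with 269, 169 and 323. Cytoskeleton and adhesion genes had 7 of 48 (14.6%), led by the actin gene Act5C and by Vinc, with 529 and 489.7 pooled. The share of this list was higher in the own lists of replicates 1, 2 and 4, at 18.8%, 22.9% and 20.8%. Neuronal genes had 4 of 31, led by the RNA-binding protein gene elav with a pooled signal of 1414, and muscle genes 4 of 32, led by the titin-like gene sls with 195, 169 and 293.

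**Figure D5:**
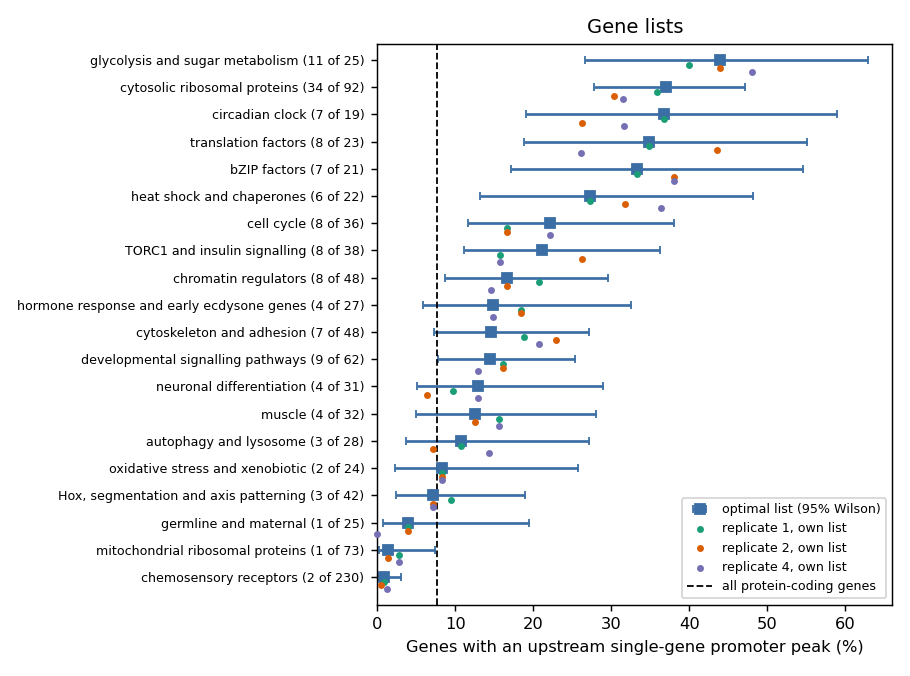
Share of each list's genes with an upstream single-gene promoter peak (horizontal axis, %), for the optimal list (squares with 95% Wilson intervals) and each replicate's own strongest regions (points), with the share over all protein-coding genes as a dashed line at 7.69%. Sugar metabolism, cytosolic ribosomal protein, clock, translation factor and bZIP lists lie highest, and the replicates lie within the intervals but for replicate 4 of the germline list, at 0.

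Genes with member peaks had a median length of 6062 bp, against 6017 bp for genes with downstream single-gene peaks and 2166 bp for all protein-coding genes. A single annotated start site was found in 43.6% of them, against 24.1% of genes with downstream peaks and 73.5% of all. Of the 1232 summits, 57.7% lay between genes, 29.4% in an intron of the gene itself upstream of a later start site, and 5.03% in its exons. Another 5.36% lay in an intron and 2.52% in an exon of another gene, and 84 members (6.82%) had a noncoding start site within 500 bp as well.

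Members matched in all 3 replicates were about as frequent in the gene's own introns (61.9%) as between genes (58.2%), and the median signals were 309 and 276. Where a gene had several start sites, 305 of 729 members (41.8%) lay at the most 5′ one.

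Several genes had more than 1 member. A single member was found at 930 genes, 2 at 131, 3 at 8, and 4 at 4 genes, namely larp, Rtnl1, dnc and Argk1. The 4 peaks of Rtnl1, an endoplasmic reticulum shaping protein, stood at 4 different start sites, with pooled signals of 1364, 244, 431 and 692 in order along the arm. Those of dnc, a cyclic AMP phosphodiesterase, also stood at 4 start sites, with 1263, 196, 1095 and 345. Those of Argk1, an arginine kinase, stood in pairs at 2 start sites, with 567 and 232 at one and 332 and 177 at the other. Of 179 neighbouring pairs of members in the same gene, 88 shared their start site, with summits a median of 202 bp apart. Some pairs, such as those of chn and Tsp42El, had both summits in the same called region. Whether such pairs are separate binding sites was not tested.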

How the data were processed

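Lists of peaks were deposited by the authors for each replicate, for the pool and as an optimal list chosen by irreproducible discovery rate, and the dm6 lists were used. Inventories deposited by the authors trace the pooled list to the 3 alignments and 1 control, and trace the optimal list to both other kinds. What aligner, caller and rate threshold were used is not given in the sources here. The deposited signal is a value per region from the authors; its normalization is not stated, and every list has a scale of its own. The deposited −log10 q value ran from 2.90 to 3.94 in the optimal list and was used only to describe it. The pooled and replicate lists hold 30000 regions each, peaks and background together, and therefore equal lengths of 5208 were compared. Depth is unknown, and intervals cover counting only.

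Summits were assigned to start sites of 13945 protein-coding genes of Ensembl release 115 on 6 arms. Sequence came from the RefSeq copy of the same assembly. All promoters were read at the most 5′ start site every 20 bp and weighted by the members' distances. They were not limited to single-gene promoters or matched to members for kind of start site, which holds for the motif shares too. Of 965 listed symbols, 12 had no match and were not analysed here. Differences between sets were tested with exact two-sided sign-flip permutation over the 3 replicates, and p-values were adjusted over 6 tests. Shares carry 95% Wilson intervals. Named genes were the 25 strongest members matched in all replicates, up to 4 per list, the 5 genes with most members, and those at the limits of distance, support and signal, and other genes named were chosen after their values were seen. Members, lists, motifs and tests were chosen with earlier results of these data known.

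Alternatives were other promoter widths, match distances, list lengths, windows and start sites, stronger peaks, peaks matched in all replicates, and each replicate left out. Tools were matplotlib 3.10.9, pandas 2.3.3, scipy 1.17.1 and numpy 2.4.6 under Python 3.11.15, and the routines were tested on simulated data. The dm3 lists were not used here.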

Additional observations from a re-analysis of the deposited data

How the results depend on the processing

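Of the alternatives to the main values, 46 kept their direction, 11 moved and 4 reversed, and 84 of those for single motifs and gene lists stayed while 24 moved. Among those that kept direction, the difference in share matched between members and downstream peaks ran from 2.64 to 14.6 points with a replicate left out and was 4.43 points in the strongest 10000 regions and 2.85 in whole lists. With the stronger part of the optimal list alone, 692 members at 628 genes remained, and 678 genes had a member matched in all replicates. The median distance was 258 bp from the most 5′ start site. The share of members matched in all 3 replicates was 41.6% at 50 bp, 67.5% at 200 bp, 70.1% with any overlap, 38.1% in the strongest 2500 regions, 76.5% in the strongest 10000 and 83.3% in whole lists, and 63.7% to 75.4% with a replicate left out. Members against shared promoter peaks had no stable direction: the difference in share matched was -0.375 points in the strongest 2500 regions, and that in median rank was -15.7 at 200 bp and ran from -70.2 to 242 with a replicate left out. The causes were not tested. The number of replicates limits every test, and no untagged control was used here. No paired analysis was possible because there is 1 group of samples, so none between groups; the sets of peaks were compared within each replicate.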

Other observations

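Among all 7-letter words present in at least 40 members, listed after the data were seen and not tested, CACAGTG stood highest against all promoters at the members' distances. It was in 42 members (3.41%), where all promoters had 1.19%, and in 3.84 ± 0.720% of the replicates' own upstream regions (SD, n = 3). It was in 4.64% of members within 100 bp of the start site and in 3.01% of those beyond. Single-gene downstream peaks had it more often, at 4.31%, and shared promoter peaks less often, at 1.90%. ACTATCG, which overlaps the CGATA core on the other strand, was in 4.38% (all promoters 2.03%), with 12.9% within 100 bp and 1.61% beyond. Words that lay mainly beyond 100 bp were ATAGTTA, with 4.84% beyond and 2.32% within, and ATAATAG, with 3.98% beyond and 1.32% within.

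By chromosome arm, genes of the X had members most often, at 202 of 2196 genes (9.20%, Wilson interval 8.06 to 10.5), and the replicates' own regions gave 8.85 ± 0.622% (SD, n = 3). The other arms lay between 6.25% and 7.82%, and chromosome 4 had 5 members. The median signal on the X, 277, was close to that of all members, 278.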
